A study of Mus musculus with 10 samples.

Results

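Potassium channels set the resting potential of islet endocrine cells and end each burst of electrical activity. In the text below, the genes of these channels and of their dedicated subunits are described in sorted delta, alpha and beta cells of mouse islets. Taken were all rows of the deposited expression table whose symbol starts with Kcn, without the noncoding RNA Kcnq1ot1, together with Abcc8 and Abcc9, the sulfonylurea receptor genes. These were 90 genes of the 19213 rows. Values are RPKM, which are read numbers divided by gene length and by the size of the library. Of the 90 genes, 43 reached 1 RPKM in at least 2 libraries and were tested, and 47 did not.

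Transcripts were measured by RNA sequencing in FACS-purified islet cells of adult mice. All animals carried the transgene mIns1-H2b-mCherry, which marks nuclei of beta cells from the mouse Ins1 promoter, and a floxed YFP allele. Delta cells were sorted by YFP from animals with Sst-Cre (2 libraries, 1 male and 1 female), and alpha cells by YFP from animals with Gcg-cre (3 libraries, 2 male and 1 female). Beta cells were sorted by mCherry from islets that also gave the delta or the alpha cells (5 libraries, 2 male and 3 female). Each pool held the islets of 10 to 12 animals of 1 sex, kept overnight in medium with 5.5 mM glucose before dissociation. The titles of the libraries hold numbers, 17 and 21 for delta, 9, 9 and 13 for alpha, and 16, 20, 8, 12 and 12 for beta libraries. A difference between delta and alpha cells thus cannot be told apart from one between these ranges of numbers. Recombination by Cre is permanent, so YFP marks every cell in which the driver was ever active. The labels name neither the cell counts nor the libraries that share islets, and they do not say that each library is a separate pool. The p-values therefore cover only how far these libraries spread, and part of that spread may be technical. In such bulk samples, fewer cells that transcribe a gene and less RNA of it per cell cannot be told apart.

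KATP channels join 4 pore subunits, Kir6.2 from Kcnj11 or Kir6.1 from Kcnj8, with as many sulfonylurea receptors, SUR1 from Abcc8 or SUR2 from Abcc9. Rising ATP closes them, the membrane depolarises and calcium entry releases hormone. K2P channels, named for their pair of pore loops per subunit, carry a background current, inward rectifiers (Kir) hold the resting potential or open with G proteins, and voltage-gated (Kv) and calcium-activated channels repolarise the membrane after an action potential.

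Taken as examples were 4 genes, 1 high in delta cells, 1 abundant in all 3 types and 2 high in alpha cells. Their 250 bases before the transcription start are printed to show how unlike these starts are in sequence. They are from the RefSeq table of GRCm38.p6, 5′ to 3′ on the strand of the gene. The windows are chr6:126535556-126535805 (minus strand) for Kcna5, chr14:20269270-20269519 (minus strand) for Kcnk16, chr11:106007898-106008147 (plus strand) for Kcnh6 and chr2:55435720-55435969 (plus strand) for Kcnj3. Capitals mark matches to any of 6 short motifs searched on both strands. These were the TATA box as TATAAA, the GC box bound by Sp1 as GGGCGG, the CCAAT box as those letters, the cAMP response element as TGACGTCA, a forkhead core as TGTTTAC and a Maf core as TGCTGAC.
Kcna5: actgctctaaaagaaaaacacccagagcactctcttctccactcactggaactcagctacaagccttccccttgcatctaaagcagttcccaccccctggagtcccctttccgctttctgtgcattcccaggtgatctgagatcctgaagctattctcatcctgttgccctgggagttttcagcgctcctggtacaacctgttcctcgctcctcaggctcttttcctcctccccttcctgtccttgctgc
Kcnk16: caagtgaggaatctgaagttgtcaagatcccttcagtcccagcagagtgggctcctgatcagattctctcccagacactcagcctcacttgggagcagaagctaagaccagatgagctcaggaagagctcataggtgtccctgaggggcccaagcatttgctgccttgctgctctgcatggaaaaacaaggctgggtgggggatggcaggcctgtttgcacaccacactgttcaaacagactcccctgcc
Kcnh6: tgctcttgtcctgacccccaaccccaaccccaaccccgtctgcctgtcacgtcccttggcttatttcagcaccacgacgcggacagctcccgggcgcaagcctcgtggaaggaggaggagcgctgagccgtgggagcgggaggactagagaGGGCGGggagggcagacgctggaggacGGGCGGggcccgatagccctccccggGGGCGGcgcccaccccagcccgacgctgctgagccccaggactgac
Kcnj3: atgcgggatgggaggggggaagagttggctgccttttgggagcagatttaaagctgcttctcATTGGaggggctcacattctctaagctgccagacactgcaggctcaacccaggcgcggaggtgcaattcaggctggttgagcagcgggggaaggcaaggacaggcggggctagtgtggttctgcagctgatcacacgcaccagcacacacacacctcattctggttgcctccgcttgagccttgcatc
The Kcnh6 window held 3 copies of GGGCGG, at 99, 72 and 46 bases before the start, 70.8% G and C, and 21 CpG. The Kcnj3 window held 1 CCAAT, read as ATTGG on the strand printed, at 188 bases before the start, with 58.4% G and C and 7 CpG. None of the 6 motifs was found in the Kcna5 window, with 53.2% G and C and 3 CpG, or in the Kcnk16 window, with 54.8% G and C and no CpG. Over the 32851 promoter windows of the same length in the table, the median was 52.4% G and C and 6 CpG, with quartiles of 2 and 16 CpG. GGGCGG was in 32.7% of those windows, CCAAT in 33.8%, TATAAA in 12.4%, TGCTGAC in 3.81%, TGTTTAC in 3.17% and TGACGTCA in 1.55%. A match is a run of letters only and says nothing of a bound factor. Of the 90 genes, 68 have an entry in that table.

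The hormone genes followed the labels of the sorts, with some transcript of the other hormones in each. Sst stood at 52388 and 60770 RPKM in delta libraries, at 1080 to 2937 RPKM in alpha libraries and at 99.6 to 922 RPKM in beta libraries. Gcg in delta libraries was 8.33% and 9.11% of its mean in alpha libraries, and in beta libraries it was 0.182% to 1.12%. Ins2 in delta and alpha libraries was 0.648% to 1.2% of its mean in beta libraries. All 7 alpha markers on a list of their own, among them Gcg, Irx1 and Irx2, were at 1 RPKM or more in both delta libraries, with a sum of 22078 and 24169 RPKM, against 752 to 3081 RPKM in beta libraries. Of 3 markers of pancreatic polypeptide cells, Ppy, Pyy and Sertm1, the sum was 44165 and 44800 RPKM in delta libraries, 9604 to 15248 RPKM in alpha libraries and 808 to 1560 RPKM in beta libraries. Ppy and Pyy made up this sum, while Sertm1 was highest in alpha cells, at a mean of 7.02 RPKM beside 1.79 RPKM in delta cells. Immune markers summed to 75.8 and 88.8 RPKM in delta, 22.9 to 41.4 in alpha and 104 to 188 in beta libraries, and neural and glial markers to 27.7 and 29.6 RPKM in delta, 12.4 to 20.6 in alpha and 37.3 to 49.0 in beta libraries. Acinar markers ranged from 662 to 857 RPKM in delta, 86.8 to 3173 in alpha and 201 to 9985 in beta libraries, and ductal markers from 344 to 414 RPKM in delta, 843 to 1951 in alpha and 548 to 715 in beta libraries. Single genes carried most of some sums. C1qa did so in the delta immune sum (57.7 and 73.5 RPKM), where Ptprc reached only 0.00873 RPKM. Spp1 did so in the alpha ductal sum (691 to 1797 RPKM), while Sox9 was highest in delta libraries. Tubb3 did so in the beta neural and glial sum (25.8 to 41.9 RPKM). The sums thus do not show which cell types were present. Endothelial markers summed to at most 10.4 RPKM and mesenchymal markers to at most 4.42 RPKM in any library. Library totals recovered from the table were 18570481 and 20209291 reads for delta, 16688097 to 17441439 for alpha and 17755859 to 26684086 for beta cells, so 1 RPKM stood for 16.7 to 26.7 reads per kilobase. To set a scale for the transcripts of other types, each library's share of them was read from these hormones and taken off every gene. The genes for which this ended a call or moved the fold are named with both values, and the part of other markers was not tested.

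A small number of the 90 genes carried most of the potassium channel transcript. Summed over all 90, the level was 1137 and 1262 RPKM in delta libraries, 677 to 750 RPKM in alpha libraries and 551 to 698 RPKM in beta libraries. Abcc8, Kcnj11 and Kcnk16 made up 71.8% and 73.3% of this sum in delta, 62.9% to 65.0% in alpha and 61.1% to 69.5% in beta libraries. The other 87 genes together gave 321 and 337 RPKM in delta libraries, 237 to 278 RPKM in alpha libraries and 190 to 227 RPKM in beta libraries. In RPKM as deposited, the delta libraries thus stood above all others with and without the 3 abundant genes. Hormone genes took 9.8% and 10.6% of the reads in delta, 27.5% to 30.9% in alpha and 17.6% to 31.8% in beta libraries. The sums were not rescaled for this, and their order under another scaling was not tested. A mean of at least 1 RPKM was reached by 35 genes in delta, 26 in alpha and 26 in beta cells, and 20 genes had a mean of at least 5 RPKM in some cell type. At the other end, 45 genes stayed under 1 RPKM in every library and 22 of them under 0.1 RPKM.

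**Figure D1:**
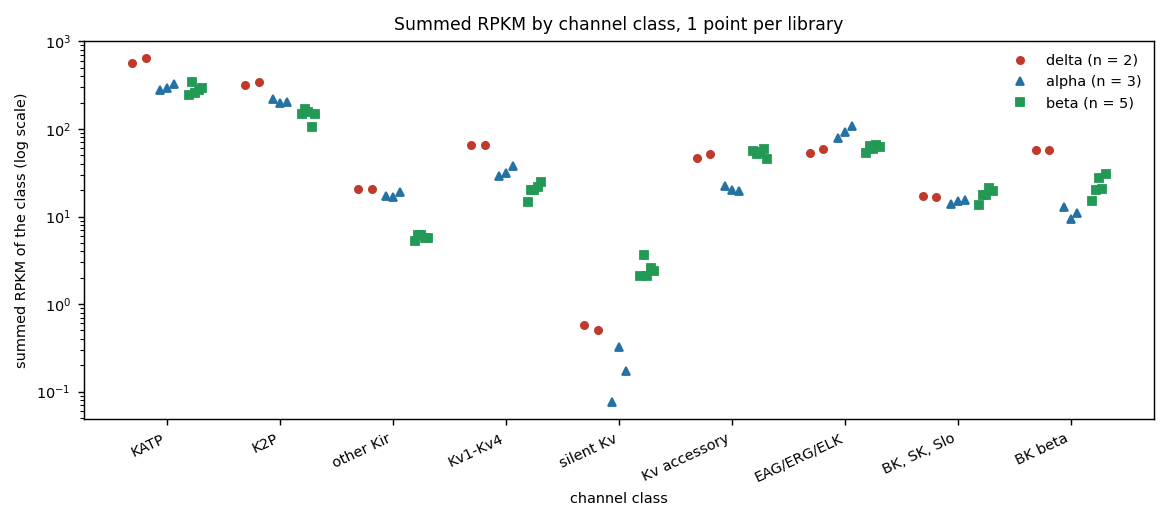
Summed RPKM of the genes of each channel class (log axis), 1 point per library, with delta, alpha and beta libraries side by side. The 2 delta libraries lie above all others for KATP, K2P, the other inward rectifiers, Kv1 to Kv4 and BK beta subunits. The beta libraries lie above all others for the silent Kv subunits.

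Most of the tested genes had more transcript in delta than in beta cells. Of the 43 tested genes, 27 were called higher in delta than in beta libraries and 9 lower (limma, adjusted p under 0.05), where 37.4% of all 12700 tested genes were called higher and 13.3% lower. The median difference over the 43 genes was 0.77 on the log2(RPKM + 1) scale, beside 0.25 over all tested genes. Against alpha cells, delta cells had 22 of the 43 genes called higher and 9 lower, where the shares of all tested genes were 32.1% and 5.89%, with a median difference of 0.53 beside 0.26. Alpha cells differed from beta cells in both directions, with 15 genes called higher and 12 lower, where 23.7% and 30.3% of all genes were called, and a median of 0.13 beside -0.02. Genes that were low in a type had to be high elsewhere to be tested, so these counts describe the genes that passed and not all 90. The 2 comparisons with beta cells share the 5 beta libraries, and all 3 comparisons share libraries in pairs.

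In 19 of the 43 genes the level was called higher in delta than in both other types, where 16.6% of all tested genes were. Highest in alpha cells by the same rule were 7 genes (4.14% of all tested genes), and highest in beta cells 7 genes (11.4% of all). Called in no comparison were 2 genes, and 13 genes were called in all 3. The shares of all tested genes with these 2 outcomes were not counted, so neither count can be read as particular to these genes. Of the 19 genes highest in delta cells, 7 (Kcnc2, Kcnd2, Kcnj4, Kcnj13, Kcnmb1, Kcnmb4 and Kcnn2) reach 1 RPKM in the 2 delta libraries alone, so they were tested only because they are high there. With a filter on the mean over all libraries, 13 of 33 tested genes were highest in delta cells, beside 15.7% of all genes. These counts depend on the delta libraries, and so do those of all genes. Without delta replicate 1, 16 of 36 tested genes were called higher against beta cells, beside 16.0% of all genes, and without delta replicate 2, 17 of 36, beside 23.1%. Against alpha cells, 13 genes were higher without delta replicate 1 (14.9% of all genes) and 12 without delta replicate 2 (17.1% of all genes). Highest in delta cells were then 10 genes (6.05% of all genes) and 9 genes (7.2% of all genes). Other alternatives rescaled the libraries without the reads of 7 hormone genes, or took libraries with a shared title number as 1. Another split the beta libraries by title number and set delta and alpha cells each against those with nearby numbers only. Delta cells were set against beta libraries 16 and 20, and alpha cells against 8, 12 and 12. For this split, delta against alpha cells was the delta minus beta less the alpha minus beta difference. This difference of differences is not the direct delta minus alpha difference, since the beta libraries differ. Where any of these ended a call, this is given with the gene. Hormone transcripts took 9.8% and 10.6% of the reads in delta libraries, 27.5% to 30.9% in alpha and 17.6% to 31.8% in beta libraries. When libraries were scaled by median ratios, the median of all genes moved to -0.005 for delta against beta cells and to -0.01 for delta against alpha cells. Of all called genes, the share with the higher level in delta against beta cells was then 49.7%, against 73.7% with RPKM as deposited, and the share higher in delta than in alpha cells was 57.8%, against 84.5%. Of the potassium channel genes, that scaling called 22 higher and 10 lower for delta against beta cells, beside 24.2% and 24.5% of all tested genes. It called 17 higher and 9 lower for delta against alpha cells (14.3% and 10.5% of all genes) and 17 higher and 13 lower for alpha against beta cells (27.9% and 29.1% of all genes). It put 14 genes highest in delta cells, where 7.92% of all genes were. With beta libraries split by title number, 18 were highest in delta cells, where 31.8% of all genes were. There the difference of differences stood in place of delta minus alpha.

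**Figure D2:**
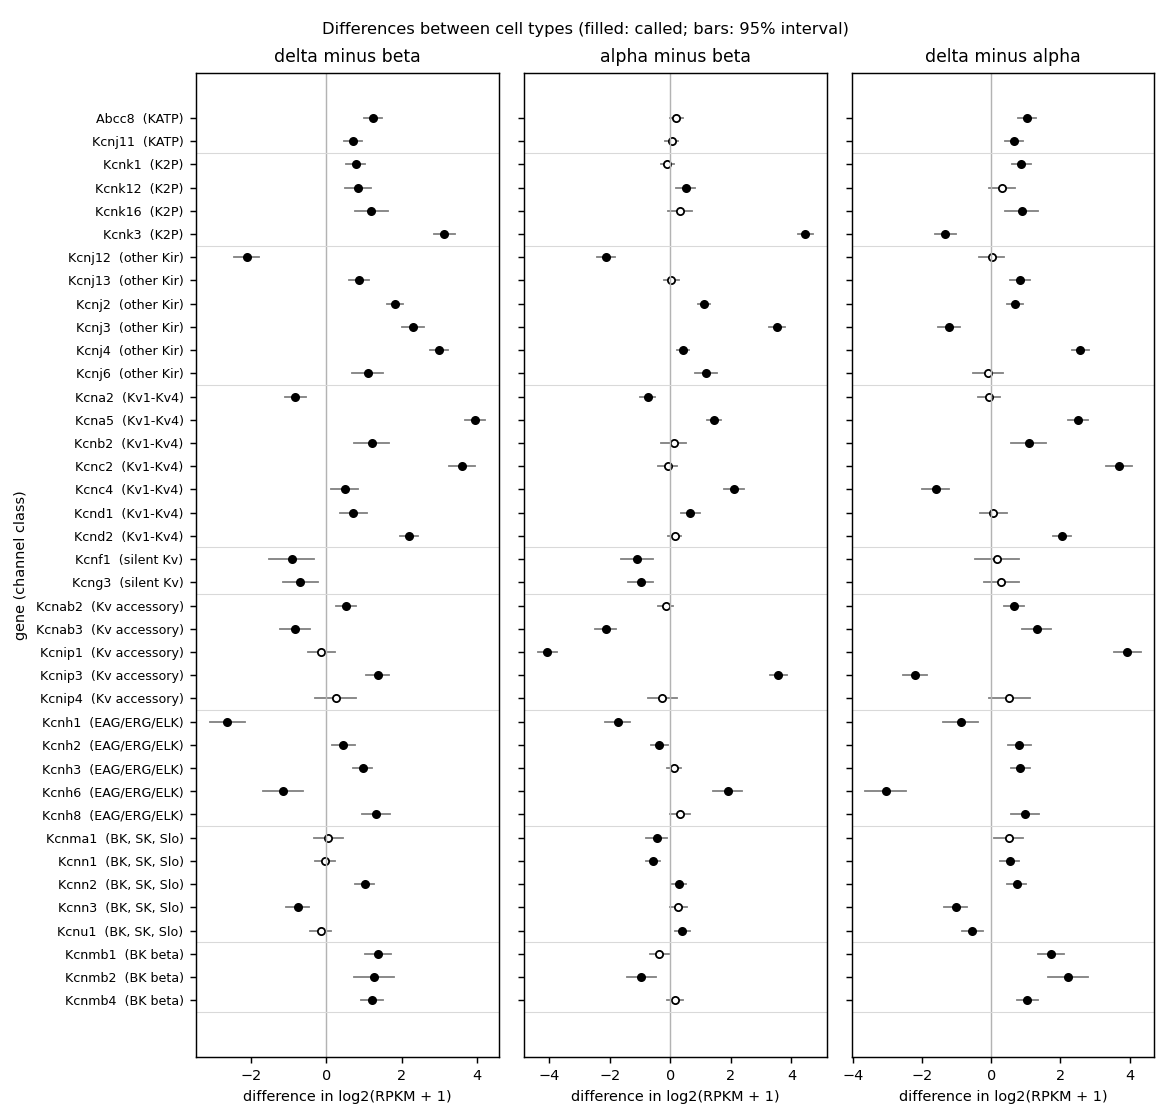
Differences in log2(RPKM + 1) with 95% intervals for 39 of the tested genes, ordered by channel class, for delta minus beta, alpha minus beta and delta minus alpha. Filled points were called at an adjusted p under 0.05. Kcna5 and Kcnc2 lie farthest to the right for delta minus beta, and Kcnip1 farthest to the left for alpha minus beta.

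Both subunits of the KATP channel were highest in delta cells. Abcc8 (chromosome 7, 46104523 to 46180033, minus strand, protein coding, as are all genes given with a position here), the SUR1 gene, had 463 and 538 RPKM in delta libraries, 212, 229 and 269 RPKM in alpha libraries and 182, 268, 200, 208 and 231 RPKM in beta libraries. Both delta libraries were above every other, and alpha and beta libraries overlapped. The difference was 1.23 (SE 0.107, adjusted p = 1.86e-05) for delta minus beta and 1.04 (SE 0.117, adjusted p = 0.000143) for delta minus alpha on the log2(RPKM + 1) scale. For alpha minus beta it was 0.20 (95% interval -0.02 to 0.41, adjusted p = 0.113), and this passed the threshold with hormone reads left out (0.29, adjusted p = 0.048) and without beta replicate 2 (0.24, adjusted p = 0.0324).

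Kcnj11 (chromosome 7, 46093953 to 46100764), the Kir6.2 gene, lies 3.8 kb from Abcc8 on the same strand. It had 96.8 and 108 RPKM in delta libraries, 69.8, 62.0 and 60.8 RPKM in alpha libraries and 59.2, 72.4, 58.3, 67.8 and 59.6 RPKM in beta libraries. Again the delta libraries stood apart and the others overlapped. The difference of 0.70 for delta minus beta (adjusted p = 0.000721) lost its call with median-ratio scaling (0.40, adjusted p = 0.0597). That of 0.65 for delta minus alpha (adjusted p = 0.0022) lost it with median-ratio scaling (0.34, adjusted p = 0.187) and with hormone reads left out (0.33, adjusted p = 0.118), while the alpha minus beta difference was 0.04 (adjusted p = 0.719). The ratio of Abcc8 to Kcnj11, both in RPKM and so per kilobase, was 4.79 and 4.96 in delta libraries, 3.04, 3.69 and 4.42 in alpha libraries and 3.07 to 3.87 in beta libraries, and no test was run on it. Kcnj8 and Abcc9, the other pore and receptor genes of the family, reached 0.0856 and 0.184 RPKM at most in any library.

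**Figure D3:**
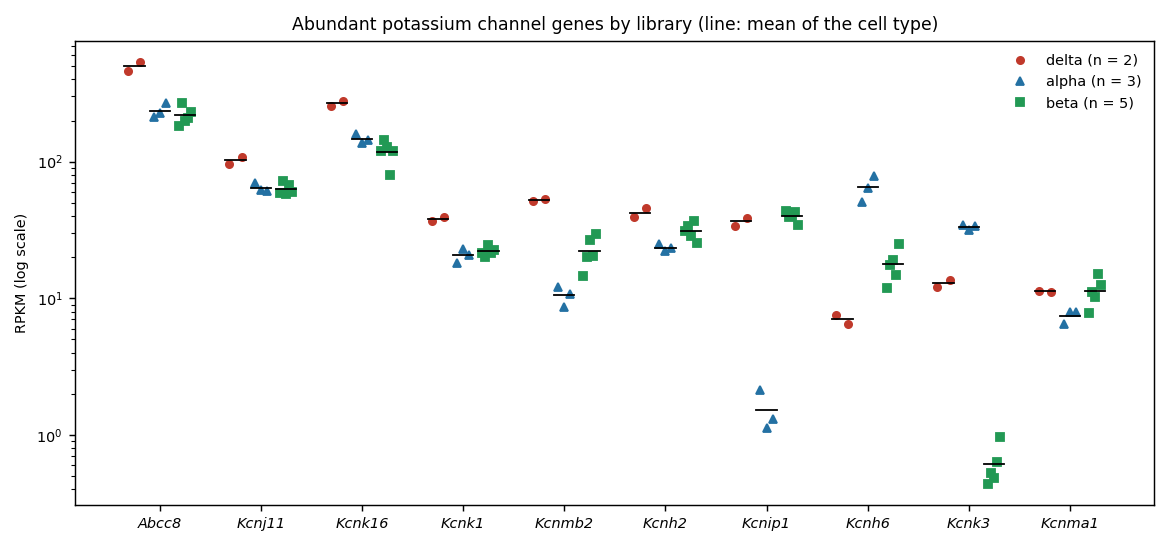
RPKM (log axis) of 10 abundant potassium channel genes in each library, with delta, alpha and beta libraries from left to right for each gene and a line at the mean of the cell type. Abcc8 is the most abundant in all libraries, and Kcnip1, Kcnk3 and Kcnh6 differ most between types.

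K2P channels were dominated by Kcnk16, and Kcnk3 separated the types. Kcnk16 (chromosome 14, 20261376 to 20269199), which encodes TALK-1, a channel of pancreatic islets, had 257 and 279 RPKM in delta libraries, 159, 136 and 143 RPKM in alpha libraries and 119, 145, 127, 79.6 and 119 RPKM in beta libraries. The delta libraries were the highest, and alpha and beta libraries overlapped. The difference was 1.20 for delta minus beta (SE 0.195, adjusted p = 0.00101). For delta minus alpha it was 0.88 (adjusted p = 0.0102), a call that ended with median-ratio scaling (0.57, adjusted p = 0.137), with hormone reads left out (0.56, adjusted p = 0.116), with beta libraries split by their title numbers (0.58, adjusted p = 0.104), without delta replicate 1 (adjusted p = 0.0523) and without delta replicate 2 (0.78, adjusted p = 0.0872). Kcnk5, its neighbour 79.6 kb away, averaged 0.0554 RPKM in delta, 0.0404 in alpha and 0.0415 in beta cells.

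Kcnk3 (chromosome 5, 30588170 to 30625271), the gene of the acid-sensitive background channel TASK-1, had 12.1 and 13.7 RPKM in delta libraries, 34.4, 31.5 and 33.9 RPKM in alpha libraries and 0.44, 0.526, 0.488, 0.633 and 0.964 RPKM in beta libraries. No library of any type overlapped with another type, and the beta libraries were the lowest. The differences were 3.13 for delta minus beta (SE 0.123, adjusted p = 1.38e-07), 4.46 for alpha minus beta (SE 0.11, adjusted p = 1.49e-08) and -1.33 for delta minus alpha (SE 0.134, adjusted p = 7.02e-05). The delta level was 38.7% of the alpha level, and it averaged 11.1 RPKM once the share of other types was taken off. Among the 7 alpha markers, the delta level ran from 8.72% of the alpha level for Gcg to 73.2% for Gc. The source of the Kcnk3 transcript in delta libraries was not tested.

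Kcnk1, which encodes TWIK-1, averaged 38.4 ± 1.71 RPKM in delta cells (SD, n = 2), 20.7 ± 2.41 RPKM in alpha cells (n = 3) and 22.0 ± 1.69 RPKM in beta cells (n = 5). It was higher in delta than in beta cells by 0.77 (adjusted p = 0.000512) and than in alpha cells by 0.87 (adjusted p = 0.00057), and with median-ratio scaling by 0.48 (adjusted p = 0.00393) and 0.57 (adjusted p = 0.00431). Kcnk12, the gene of the silent subunit THIK-2, averaged 8.69 ± 1.64 RPKM in delta, 6.94 ± 1.24 RPKM in alpha and 4.38 ± 0.555 RPKM in beta cells and was lowest in beta cells. Its delta minus beta difference of 0.83 was 0.49 without delta replicate 2 (adjusted p = 0.0441), and its alpha minus beta difference of 0.51 (adjusted p = 0.0112) lost its call when libraries with a shared title number were taken as 1 (0.45, adjusted p = 0.062). Antisense genes share 8.01% of the exon bases of Kcnk1 and 5.76% of those of Kcnk3. The other 9 K2P genes of the table were not tested, and only Kcnk13 reached 1 RPKM, with 1.02 RPKM in 1 beta library.

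Among the other inward rectifiers, Kcnj3 and Kcnj6, which encode G protein gated (GIRK) subunits, were lowest in beta cells. Kcnj3 (chromosome 2, 55435970 to 55598145), which encodes GIRK1, had 4.01 and 4.49 RPKM in delta libraries, 12.0, 9.7 and 12.0 RPKM in alpha libraries and 0, 0, 0.168, 0.0256 and 0.179 RPKM in beta libraries. All 3 types were separate, with beta libraries at or near 0. It was higher than in beta cells by 2.30 in delta (SE 0.129, adjusted p = 1.03e-06) and by 3.52 in alpha cells (SE 0.115, adjusted p = 4.04e-08). The delta minus alpha difference was -1.23 (adjusted p = 0.000156) and missed the threshold with a pseudocount of 0.1 (-1.38, adjusted p = 0.0566). After the share of other types was taken off, Kcnj3 averaged 3.62 RPKM in delta cells. Its exons share 31.1% of their bases with an antisense gene, Gm26794, whose reads cannot be separated from its own in libraries that do not mark the strand.

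Kcnj6, the gene of GIRK2, which forms channels with GIRK1, had 3.83 and 3.9 RPKM in delta libraries, 3.01, 4.63 and 4.79 RPKM in alpha libraries and 0.871, 1.31, 1.34, 1.2 and 2.01 RPKM in beta libraries. Every delta and alpha library was above every beta library, with differences of 1.09 for delta minus beta (adjusted p = 0.0011) and 1.19 for alpha minus beta (adjusted p = 0.000263). Kcnj5 and Kcnj9, the remaining genes of this subfamily, were at 0.355 and 0.0802 RPKM at most and were not tested.

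The strong rectifiers of the Kir2 subfamily differed in where they were high. Kcnj4, the gene of Kir2.3, had 8.67 and 8.01 RPKM in delta libraries, 0.64, 0.551 and 0.533 RPKM in alpha libraries and 0.0951 to 0.296 RPKM in beta libraries, with a median of 0.157 RPKM. It was higher in delta than in beta cells by 2.99 (SE 0.102, adjusted p = 6.64e-08) and than in alpha cells by 2.58 (SE 0.112, adjusted p = 5.73e-07). Kcnj4 passed the filter only through the delta libraries, so these p-values do not support its differences. Its small alpha minus beta difference of 0.42 (adjusted p = 0.00423) was 0.23 and not called after the share of other types was taken off (adjusted p = 0.0552). Kcnj12, the gene of Kir2.2, was the reverse, with 0.0203 and 0.0771 RPKM in delta libraries, 0.0858, 0.0242 and 0.0352 RPKM in alpha libraries and 3.82, 4.0, 3.78, 3.65 and 2.47 RPKM in beta libraries. All beta libraries were far above the rest, by 2.11 over delta and 2.12 over alpha cells on the log2 scale (differences of -2.11 with adjusted p = 3.85e-06 and -2.12 with adjusted p = 1.79e-06). Kcnj2, the gene of Kir2.1, had 2.78 and 2.75 RPKM in delta libraries, 1.21, 1.45 and 1.32 RPKM in alpha libraries and no more than 0.144 RPKM in beta libraries, with all 3 comparisons called. Kcnj2 and Kcnj4 were thus highest in delta cells and Kcnj12 in beta cells.

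Kcnj13, which encodes the weakly rectifying Kir7.1, reached 1.17 and 1.12 RPKM in delta libraries and at most 0.395 RPKM elsewhere, but 49.1% of its exon bases are shared with Gigyf2 on the other strand, so its level is uncertain. The other 7 genes of the class were not tested.

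**Figure D4:**
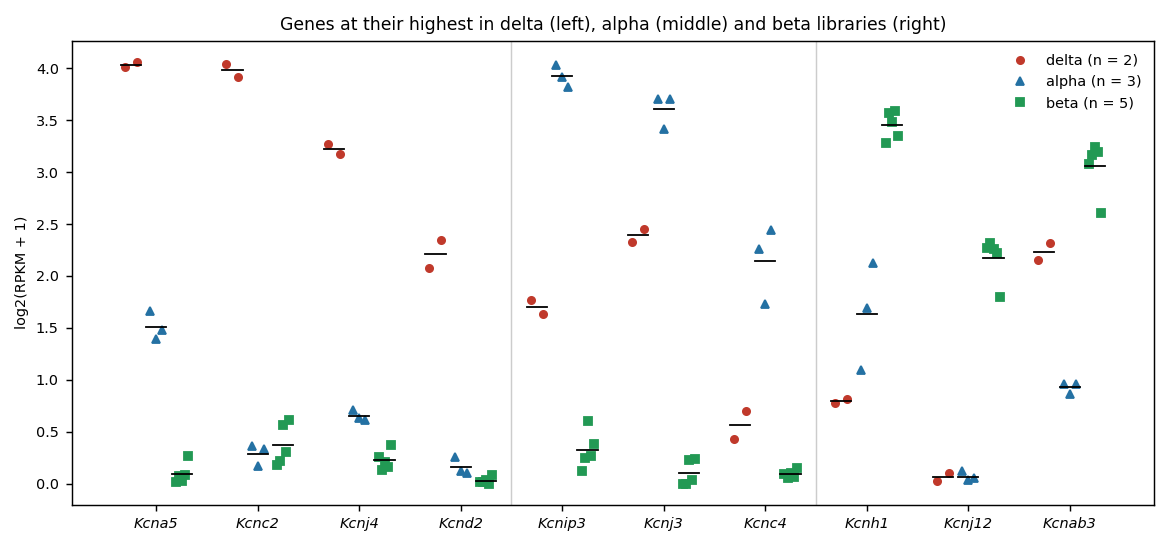
Level as log2(RPKM + 1) of 10 genes in each library, with a line at the mean of each cell type: Kcna5, Kcnc2, Kcnj4 and Kcnd2 at their highest in delta cells, Kcnip3, Kcnj3 and Kcnc4 in alpha cells, and Kcnh1, Kcnj12 and Kcnab3 in beta cells. Kcnj3 is also raised in the delta libraries, where it has 4.01 and 4.49 RPKM.

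For delta minus beta, the 2 largest differences of the 43 genes were in Kv pore subunits, Kcna5 and Kcnc2. Kcna5 (chromosome 6, 126532551 to 126535412), the gene of the delayed rectifier Kv1.5, had 15.1 and 15.7 RPKM in delta libraries, 2.17, 1.62 and 1.79 RPKM in alpha libraries and 0.0127, 0.0545, 0.0187, 0.0573 and 0.2 RPKM in beta libraries. No types overlapped. The differences were 3.95 for delta minus beta (SE 0.115, adjusted p = 3.42e-08), 2.51 for delta minus alpha (SE 0.126, adjusted p = 1.03e-06) and 1.44 for alpha minus beta (SE 0.103, adjusted p = 4.65e-06). With the share of other types taken off, the mean was 1.42 RPKM in alpha cells and 0 in beta cells. Kcna1, 105 kb away, stood at 0.0066 RPKM at most.

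Kcnc2 (chromosome 10, 112271121 to 112467024), the gene of the fast-gating Kv3.2, had 15.5 and 14.1 RPKM in delta libraries, 0.29, 0.124 and 0.259 RPKM in alpha libraries and 0.129, 0.165, 0.482, 0.236 and 0.532 RPKM in beta libraries. The delta libraries were far above the rest, and alpha and beta libraries overlapped. It was higher in delta than in beta cells by 3.60 (SE 0.149, adjusted p = 1.82e-07) and than in alpha cells by 3.69 (SE 0.163, adjusted p = 6.14e-07). Kcnd2 (chromosome 6, 21215503 to 21729805), the gene of the A-type channel Kv4.2, had 3.21 and 4.1 RPKM in delta libraries, 0.198, 0.0912 and 0.0757 RPKM in alpha libraries and 0 to 0.0577 RPKM in beta libraries. It was higher in delta than in beta cells by 2.19 (adjusted p = 3.38e-07) and than in alpha cells by 2.04 (adjusted p = 1.66e-06). Like Kcnc2, Kcnd2 was tested only because it is high in the delta libraries, so the p-values of both do not support these differences. The other Kv4 genes stood otherwise. Kcnd1 averaged 3.71 ± 0.3 RPKM in delta, 3.53 ± 0.671 RPKM in alpha and 1.88 ± 0.32 RPKM in beta cells and was lowest in beta cells, with a delta minus beta difference of 0.72 that was not called without delta replicate 1 (0.62, adjusted p = 0.0812). Kcnd3 reached 0.462 RPKM at most and was not tested.

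Kcnc4, the gene of Kv3.4, was highest in alpha cells, unlike Kcnc2. It had 0.345 and 0.626 RPKM in delta libraries, 3.8, 2.32 and 4.45 RPKM in alpha libraries and 0.0408 to 0.112 RPKM in beta libraries, with a median of 0.0633 RPKM. The alpha libraries were the highest, by 2.10 over beta cells (adjusted p = 3.4e-06) and with a delta minus alpha difference of -1.61 (adjusted p = 0.00011). Its delta minus beta difference of 0.49 (adjusted p = 0.0297) was 0.21 (adjusted p = 0.319) with the share of other types taken off. That call also ended with median-ratio scaling (0.41, adjusted p = 0.0738), with beta libraries split by title number (0.49, adjusted p = 0.0538), without delta replicate 1 (0.55, adjusted p = 0.133), without delta replicate 2 (0.43, adjusted p = 0.201), without beta replicate 2 (0.46, adjusted p = 0.0527) and without beta replicate 4 (0.46, adjusted p = 0.0552).

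Kcnb2, the gene of the delayed rectifier Kv2.2, had 3.55 and 4.38 RPKM in delta libraries, 1.11, 1.09 and 1.54 RPKM in alpha libraries and 0.553, 0.81, 1.2, 1.98 and 1.8 RPKM in beta libraries. Its delta libraries were the highest, with differences of 1.20 for delta minus beta (adjusted p = 0.00132) and 1.09 for delta minus alpha (adjusted p = 0.00471). The comparison with alpha cells was not called without delta replicate 1 (1.02). With beta libraries split by title number, the difference of differences was 1.70 (adjusted p = 5.65e-05).

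Beta cells were highest in the silent Kv subunits, which form no channel alone and alter Kv2 channels. Kcnf1, the Kv5.1 gene, had 0.0827 and 0.191 RPKM in delta libraries, 0, 0.0124 and 0 RPKM in alpha libraries and 1.59, 2.22, 0.741, 1.18 and 0.501 RPKM in beta libraries. All beta libraries were above the others, by 0.93 over delta cells on the log2 scale (a difference of -0.93, adjusted p = 0.0156) and by 1.10 over alpha cells (-1.10, adjusted p = 0.00341). The delta minus beta call ended without delta replicate 1 (-0.87, adjusted p = 0.13) and without delta replicate 2 (-0.98, adjusted p = 0.0837). Kcng3, the Kv6.3 gene, had 0.339 and 0.225 RPKM in delta libraries, 0.0171 to 0.0179 RPKM in alpha libraries and 0.352, 1.34, 1.07, 1.28 and 1.74 RPKM in beta libraries. Its delta minus beta difference of -0.69 (adjusted p = 0.0198) was -0.44 without delta replicate 2 (adjusted p = 0.253) and -0.48 with beta libraries split by title number (adjusted p = 0.0766), and its alpha minus beta difference was -0.98 (adjusted p = 0.00169). Kcna2, the Kv1.2 gene, was also highest in beta cells, at 0.17 ± 0.0227 RPKM in delta, 0.215 ± 0.038 RPKM in alpha and 1.1 ± 0.29 RPKM in beta cells (SD, n = 2, 3 and 5). The other 5 silent subunit genes and 7 genes of the Kv1 to Kv4 class were not tested.

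**Figure D5:**
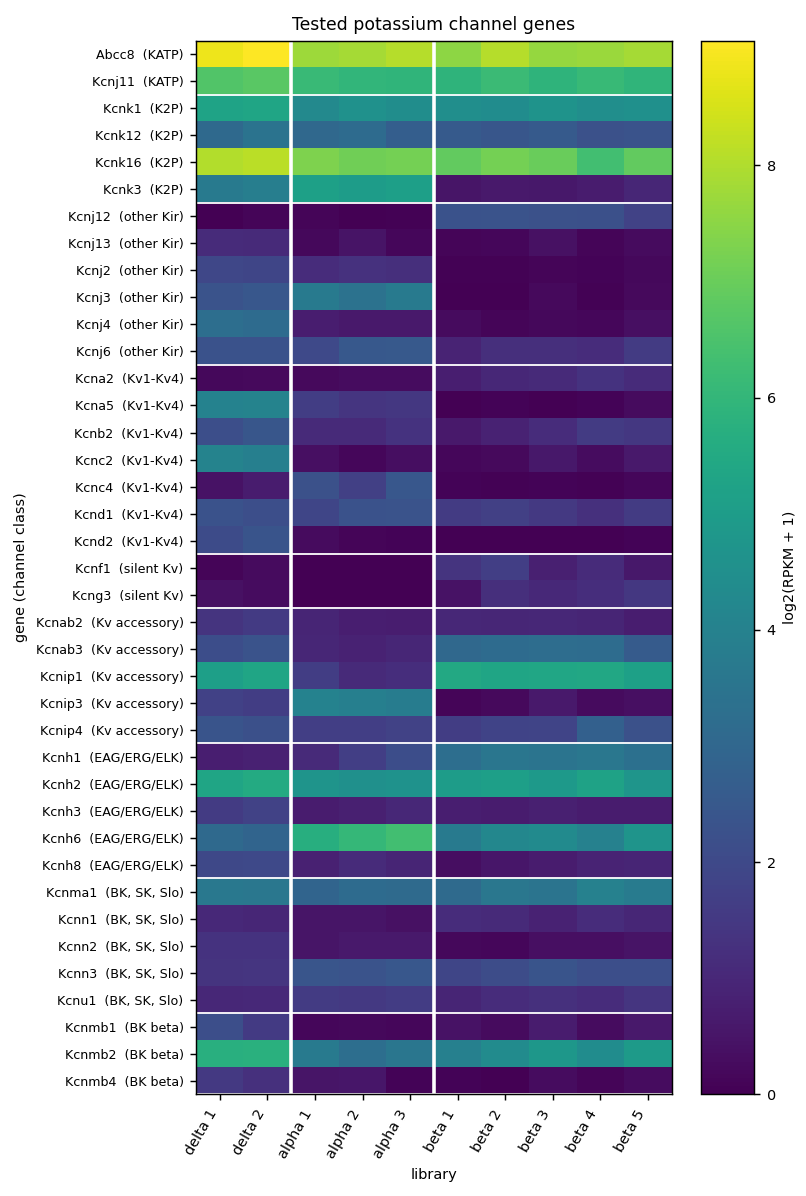
Heat map of log2(RPKM + 1) of 39 tested genes (rows, grouped by channel class) in the 10 libraries (columns, with delta, alpha and beta libraries from left to right). Abcc8, Kcnj11 and Kcnk16 are bright in all libraries, Kcna5, Kcnc2 and Kcnj4 are bright in the 2 delta libraries, and Kcnip1 is dark in the 3 alpha libraries.

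The KChIP genes, whose calcium-binding proteins attach to Kv4 channels and alter their gating and surface level, were split between the cell types. Kcnip1 (chromosome 11, 33629339 to 33993152) had 34.1 and 39.0 RPKM in delta libraries, 2.13, 1.12 and 1.3 RPKM in alpha libraries and 43.6, 39.3, 40.0, 42.7 and 34.5 RPKM in beta libraries. Delta and beta libraries overlapped, and the alpha libraries were far below both. The alpha minus beta difference was -4.06 (SE 0.142, adjusted p = 5.59e-08), the delta minus alpha difference 3.93 (SE 0.174, adjusted p = 6.14e-07), and the delta minus beta difference -0.13 (95% interval -0.49 to 0.22, adjusted p = 0.499). Kcnip3 (chromosome 2, 127456498 to 127522094), whose product is also known as DREAM or calsenilin, was the counterpart, with 2.4 and 2.1 RPKM in delta libraries, 15.4, 14.1 and 13.1 RPKM in alpha libraries and 0.0855, 0.184, 0.521, 0.205 and 0.305 RPKM in beta libraries. All types were separate and the alpha libraries the highest, by 3.57 over beta cells (SE 0.123, adjusted p = 5.1e-08), with a delta minus alpha difference of -2.21 (adjusted p = 5.6e-06). In delta cells its level was 15.9% of that in alpha cells. The delta minus beta difference of 1.36 (adjusted p = 4.8e-05) was 0.85 with the share of other types taken off (adjusted p = 0.000744), at a delta mean of 1.12 RPKM. Kcnip4 averaged 3.9 ± 0.285 RPKM in delta, 2.32 ± 0.153 RPKM in alpha and 3.38 ± 1.5 RPKM in beta cells and was not called. Against alpha cells, its delta level was called higher without beta replicate 4 (0.54, adjusted p = 0.0397). With beta libraries split by title number, delta minus beta, alpha minus beta and the difference of differences were all called.

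The Kv beta subunits, cytoplasmic partners of Kv1 channels, also differed. Kcnab3 had 3.45 and 3.97 RPKM in delta libraries, 0.945, 0.817 and 0.949 RPKM in alpha libraries and 7.43, 7.94, 8.48, 8.13 and 5.1 RPKM in beta libraries. The order was beta, delta, alpha with no overlap, at differences of -0.83 for delta minus beta (adjusted p = 0.0039), -2.14 for alpha minus beta (adjusted p = 4.9e-06) and 1.31 for delta minus alpha (adjusted p = 0.000619), and the first of these was not called without delta replicate 1 (-0.71, adjusted p = 0.0692). Kcnab2 averaged 1.75 ± 0.22 RPKM in delta, 0.748 ± 0.138 RPKM in alpha and 0.919 ± 0.147 RPKM in beta cells. It was higher in delta than in beta cells by 0.52 (adjusted p = 0.00577), a call that ended with median-ratio scaling (0.33, adjusted p = 0.064) and without delta replicate 2 (0.36, adjusted p = 0.129). Its delta minus alpha difference of 0.67 (adjusted p = 0.0031) also ended without delta replicate 2 (0.53, adjusted p = 0.0594). The other 7 accessory genes, among them the Kcne genes of this table, were not tested.

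The EAG, ERG and ELK channels are voltage-gated channels of 1 family, in which ERG channels repolarise slowly. Their 8 genes summed to 53.6 and 59.1 RPKM in delta libraries, 77.9 to 108 RPKM in alpha libraries and 53.3 to 65.3 RPKM in beta libraries, so the alpha libraries were the highest. Kcnh6 (chromosome 11, 106008124 to 106034549), the gene of ERG2, had 7.56 and 6.53 RPKM in delta libraries, 50.4, 64.6 and 79.2 RPKM in alpha libraries and 11.9, 17.6, 19.1, 14.8 and 25.1 RPKM in beta libraries. No types overlapped and the delta libraries were the lowest. The differences were -1.16 for delta minus beta (SE 0.238, adjusted p = 0.00362), 1.90 for alpha minus beta (SE 0.213, adjusted p = 8.15e-05) and -3.05 for delta minus alpha (SE 0.261, adjusted p = 2.45e-05). The delta level was 10.9% of the alpha level. With the share of other types taken off, the delta mean was 1.35 RPKM and the differences were -3.05 for delta minus beta (adjusted p = 9.44e-05) and -4.95 for delta minus alpha (adjusted p = 8.97e-06), while without delta replicate 2 the delta minus beta difference was not called (-0.87, adjusted p = 0.0712).

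Kcnh2 (chromosome 5, 24319589 to 24351604), the gene of ERG1, had 39.3 and 45.5 RPKM in delta libraries, 24.9, 22.3 and 23.4 RPKM in alpha libraries and 31.2, 33.6, 28.5, 36.9 and 25.4 RPKM in beta libraries. The order was delta, beta, alpha without overlap. The delta minus alpha difference of 0.81 (adjusted p = 0.00255) was 0.50 with median-ratio scaling (adjusted p = 0.104) and 0.50 with hormone reads left out (adjusted p = 0.0725). For delta minus beta the difference of 0.45 (adjusted p = 0.022) was 0.16 with median-ratio scaling (adjusted p = 0.499), 0.23 with hormone reads left out (adjusted p = 0.278), 0.37 with beta libraries split by title number (adjusted p = 0.0595), 0.52 without delta replicate 1 (adjusted p = 0.0856) and 0.37 without delta replicate 2 (adjusted p = 0.181). For alpha minus beta the difference of -0.36 (adjusted p = 0.0329) lost its call under 8 alternatives. These were median-ratio scaling (adjusted p = 0.101), hormone reads left out (-0.27, adjusted p = 0.141), beta libraries split by title number (-0.30, adjusted p = 0.076) and the removal of 1 of 5 libraries, with adjusted p between 0.0505 without beta replicate 4 and 0.176 without alpha replicate 3. The other libraries whose removal ended this call were beta replicates 1 (-0.33, adjusted p = 0.0737) and 2 (-0.34, adjusted p = 0.0538) and alpha replicate 2 (-0.34, adjusted p = 0.0911).

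Kcnh1 (chromosome 1, 192190774 to 192510159), the gene of EAG1, had the lowest delta minus beta difference of the 43 genes, with 0.714 and 0.761 RPKM in delta libraries, 1.14, 2.22 and 3.37 RPKM in alpha libraries and 8.7, 10.9, 10.2, 11.0 and 9.21 RPKM in beta libraries. All types were separate. The differences were -2.63 for delta minus beta (SE 0.202, adjusted p = 8.31e-06) and -1.74 for alpha minus beta (SE 0.181, adjusted p = 4.94e-05). For delta minus alpha it was -0.89 (adjusted p = 0.012), a call that ended without delta replicate 2 (-0.75, adjusted p = 0.105) and without alpha replicate 3 (-0.65, adjusted p = 0.0653). The ELK genes Kcnh8 and Kcnh3 were highest in delta cells. Kcnh8 averaged 2.94 ± 0.0483 RPKM in delta, 0.965 ± 0.184 RPKM in alpha and 0.627 ± 0.284 RPKM in beta cells, a delta minus beta difference of 1.31 (adjusted p = 0.000201). Kcnh3 averaged 2.23 ± 0.316 RPKM in delta, 0.79 ± 0.21 RPKM in alpha and 0.655 ± 0.0657 RPKM in beta cells, a delta minus beta difference of 0.97 (adjusted p = 0.000135). Kcnh5 lay just outside the test, with 1.05 RPKM in 1 beta library, and 2 further genes of the class were not tested.

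Of the BK channel genes, the pore gene had overlapping levels in delta and beta libraries, and the beta subunit genes were higher in delta cells. Kcnma1, the pore gene of the large-conductance BK channel, had 11.4 and 11.2 RPKM in delta libraries, 6.5, 7.93 and 7.89 RPKM in alpha libraries and 7.75, 11.1, 10.2, 15.0 and 12.6 RPKM in beta libraries. The delta libraries lay within the range of the beta libraries, with a difference of 0.05 (95% interval -0.33 to 0.44, adjusted p = 0.808). The alpha minus beta difference of -0.45 (adjusted p = 0.0318) lost its call without beta replicate 3 (-0.43, adjusted p = 0.0719), alpha replicate 1 (-0.41, adjusted p = 0.087) or alpha replicate 3 (-0.36, adjusted p = 0.192), and with shared title numbers taken as 1 (-0.43, adjusted p = 0.071). The delta minus alpha difference of 0.50 (adjusted p = 0.06) was called without beta replicate 1 (0.52, adjusted p = 0.0232) and without beta replicate 4 (0.51, adjusted p = 0.0405). It was also called with the share of other types taken off (0.58, adjusted p = 0.0361). With beta libraries split by title number, the difference of differences was called (0.85, adjusted p = 0.00879).

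Kcnmb2 (chromosome 3, 31902507 to 32200180), whose product is a BK beta subunit that inactivates the channel, had 51.3 and 53.7 RPKM in delta libraries, 12.2, 8.65 and 10.7 RPKM in alpha libraries and 14.5, 20.0, 26.9, 20.5 and 29.6 RPKM in beta libraries. All types were separate, in the order delta, beta, alpha. The differences were 1.25 for delta minus beta (SE 0.235, adjusted p = 0.00224), 2.21 for delta minus alpha (SE 0.258, adjusted p = 0.000173) and -0.95 for alpha minus beta (SE 0.211, adjusted p = 0.00438). The mean RPKM of Kcnmb2 was above that of Kcnma1 in all 3 types. It was 52.5 ± 1.64 beside 11.3 ± 0.13 RPKM in delta libraries (SD, n = 2) and 10.5 ± 1.76 beside 7.44 ± 0.816 RPKM in alpha libraries (n = 3). In beta libraries it was 22.3 ± 5.97 beside 11.3 ± 2.71 RPKM (n = 5). Kcnmb1 had 3.57 and 1.89 RPKM in delta libraries and at most 0.156 RPKM in alpha and 0.605 RPKM in beta libraries. It lies inside the Kcnip1 gene on the opposite strand. Kcnmb4 had 1.87 and 1.39 RPKM in delta libraries and at most 0.472 RPKM in alpha and 0.224 RPKM in beta libraries, with 20.8% and 10.7% of its exon bases shared with 2 antisense genes. Both were called higher in delta cells against beta cells (1.37 and adjusted p = 9.57e-05 for Kcnmb1, 1.21 and adjusted p = 6.62e-05 for Kcnmb4). They were tested only because they are high in the delta libraries, so these p-values do not support the differences.

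The small-conductance (SK) genes had low levels with different orders. Kcnn2 had 1.5 and 1.53 RPKM in delta libraries, 0.439, 0.55 and 0.532 RPKM in alpha libraries and 0.12 to 0.403 RPKM in beta libraries, a delta minus beta difference of 1.01 (adjusted p = 8.87e-05). Kcnn2 passed the filter only through the delta libraries, so this p-value does not support the difference. Its alpha minus beta difference of 0.28 (adjusted p = 0.0393) lost its call under 9 alternatives. It was 0.18 with beta libraries split by title number (adjusted p = 0.135), 0.30 with shared title numbers taken as 1 (adjusted p = 0.0642) and 0.26 with the share of other types taken off (adjusted p = 0.0527). The adjusted p was 0.108 without beta replicate 1, 0.0556 without beta replicate 2, 0.0552 without beta replicate 4, and 0.0519, 0.106 and 0.133 without alpha replicates 1, 2 and 3. Kcnn3 was lowest in delta cells, at 1.57 and 1.67 RPKM in delta libraries, 4.31, 3.98 and 4.57 RPKM in alpha libraries and 2.7 to 4.18 RPKM in beta libraries (median 3.53 RPKM), with differences of -0.76 for delta minus beta (adjusted p = 0.0017) and -1.02 for delta minus alpha (adjusted p = 0.000621). Kcnn1 averaged 1.01 ± 0.0748 RPKM in delta, 0.399 ± 0.0635 RPKM in alpha and 1.07 ± 0.183 RPKM in beta cells. Its alpha minus beta difference was -0.56 (adjusted p = 0.00151), while its delta minus alpha difference of 0.53 (adjusted p = 0.00957) ended under 6 alternatives. It was 0.39 with median-ratio scaling (adjusted p = 0.0884) and 0.46 with hormone reads left out (adjusted p = 0.0584). It also ended with the removal of either delta library (0.49 without replicate 1 and 0.56 without replicate 2) or of alpha replicate 3 (0.48, adjusted p = 0.0501). The last of the 6 was the split of beta libraries by title number, where the difference of differences was 0.39 (adjusted p = 0.0946). Kcnu1, a pore gene known for its role in sperm, averaged 1.03 ± 0.0306 RPKM in delta, 1.94 ± 0.118 RPKM in alpha and 1.28 ± 0.256 RPKM in beta cells. It was called higher in alpha than in beta cells (0.39, adjusted p = 0.0137), except without alpha replicate 3 (adjusted p = 0.0673). Its delta minus alpha difference of -0.55 (adjusted p = 0.011) was not called without delta replicate 1 (-0.58) or without delta replicate 2 (-0.51). With beta libraries split by title number, the difference of differences was -0.33 and not called (adjusted p = 0.127). The 3 other genes of the class were not tested.

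Genes of proteins that act with potassium channels but have other names were read from a list of their own, of which 45 were in the table and 38 were tested. In delta against beta cells 18 were called higher and 3 lower, in alpha against beta cells 12 higher and 14 lower, and in delta against alpha cells 17 higher and 4 lower, with medians of 0.36, -0.04 and 0.39. These counts are 47.4% and 7.89% of the tested partners for delta against beta cells, beside 37.4% and 13.3% of all tested genes. For alpha against beta cells they are 31.6% and 36.8%, beside the 23.7% and 30.3% of all genes, and for delta against alpha cells 44.7% and 10.5%, beside 32.1% and 5.89%. Dpp6, a subunit of Kv4 channels, averaged 52.8 ± 3.6 RPKM in delta, 2.16 ± 0.384 RPKM in alpha and 0.353 ± 0.107 RPKM in beta cells, and it was higher in delta cells by 5.33 over beta (adjusted p = 2.12e-08) and 4.08 over alpha cells (adjusted p = 3.11e-07). Delta cells were thus highest in Dpp6 and in Kcnd2, the pore gene. Dpp10, the related subunit, had 12.2 and 20.8 RPKM in delta libraries, 16.3, 14.0 and 13.1 RPKM in alpha libraries and 0.321 to 0.809 RPKM in beta libraries. It was higher than in beta cells by 3.44 in delta (adjusted p = 8.07e-07) and by 3.34 in alpha cells (adjusted p = 4.41e-07).

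Among the proteins that attach GIRK channels to the GABA-B receptor and to G proteins, the types differed by member. Kctd8 averaged 13.9 RPKM in delta, 0.796 RPKM in alpha and 1.53 RPKM in beta cells and was higher in delta than in alpha cells by 3.06 (adjusted p = 3.15e-06). Kctd12b averaged 2.7 RPKM in delta, 19.3 RPKM in alpha and 3.07 RPKM in beta cells, and the inhibitory G protein gene Gnai1 6.75 RPKM in delta, 42.5 RPKM in alpha and 4.02 RPKM in beta cells. Both exceeded beta cells in alpha cells, by 2.38 for Kctd12b (adjusted p = 2.74e-05) and by 3.19 for Gnai1 (adjusted p = 1.35e-05). Kctd12 averaged 23.1 RPKM in delta, 12.6 RPKM in alpha and 6.57 RPKM in beta cells, a delta minus beta difference of 1.78 (adjusted p = 0.0017). Hcn4, a pacemaker channel gene, was lower in alpha than in beta cells (-1.99, adjusted p = 1.7e-06). Atp1b2, a sodium pump subunit gene, was higher in delta than in alpha cells by 3.38 (adjusted p = 6.14e-07). Slc2a2, the glucose transporter gene upstream of KATP closure in mouse beta cells, averaged 2.39 RPKM in delta, 1.36 RPKM in alpha and 95.7 RPKM in beta cells, with differences of -4.74 (adjusted p = 9.73e-07) and -5.22 (adjusted p = 2.5e-07) from beta cells.

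No difference by sex was called. In the same limma fit, 0 of the 43 genes were called between female and male libraries, where 0.0472% of all tested genes were, and 2 had an unadjusted p under 0.05. The smallest adjusted p was 0.77, for Abcc8 among others, whose female minus male difference was 0.27. Whether the alpha minus beta difference depends on sex was tested in the alpha and beta libraries alone, where 33 genes passed the filter. This test called 0 of the 33 genes (limma, smallest adjusted p = 1), with 0 at an unadjusted p under 0.05, beside 0 of all 12273 genes. With 1 female alpha library it has little power, and the delta cells, with 1 library of each sex, did not enter it.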

How the data were processed

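Per the labels' protocols, sorted cells were collected in Trizol and their RNA was sequenced from TruSeq v2 libraries, a kit that keeps no strand. The authors deposited RPKM values of the 10 libraries in 1 table. The submitters' processing notes name the build GRCm38.p3 and the tools STAR 2.4, featureCounts and edgeR 3.12.0. The sources used here name neither the gene annotation nor a scaling factor. Because RPKM divide a fixed total, a library rich in hormone transcripts shows less of all others. Of the symbols in the table, 27 read as dates after a spreadsheet conversion.

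Library totals were recovered from the steps between low values, where 1 read has a fixed worth. The main test was limma 3.58.1 (R 4.3.3, trend on) on log2(RPKM + 1). A single fit took in the 10 libraries and modelled sex beside cell type (6 residual and 3.16 prior degrees of freedom). Genes with at least 1 RPKM in at least 2 libraries were tested, 12700 in all, and p-values were adjusted over them by the Benjamini-Hochberg method and called under 0.05. All differences are on this log2 scale, on which the change of low genes is understated.

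The genes, the channel classes and the partner and marker lists were chosen with earlier results of these data known. Full values are given for genes with a mean of at least 5 RPKM in a cell type or a called difference of at least 1. Some genes are not reported here one by one and enter only the counts and sums. Partners named are up to 5 per comparison, those with the largest called differences. Positions come from the GENCODE M21 annotation of GRCm38 and promoters from RefSeq, both matched by symbol. Alternatives were 20 other settings of pseudocount, filter, scaling, terms and libraries. One subtracted from each library the share of the other types given by Gcg, Sst and Ins2, another set delta and alpha cells against the beta libraries with nearby title numbers only, and another averaged libraries whose titles share a number.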

Additional observations from a re-analysis of the deposited data

Results flagged for a closer look

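In 34 genes the 5 beta libraries could be checked for a library far from the others, and 2 genes had one, where chance gives about 1 in 20 groups. Kcna5 stood at 0.2 RPKM (16 reads) in beta replicate 5, against 0.0127 to 0.0573 RPKM in the other beta libraries. That library also had the highest Sst of the beta libraries, at 1.63% of the delta mean, and a link to the Kcna5 value was not tested. Kcnj12 stood at 2.47 RPKM in beta replicate 5, against 3.65 to 4.0 RPKM in the other beta libraries. Both calls of each gene against beta cells held without that library.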

How the results depend on the processing

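Leaving out each library in turn gave 16 to 27 genes higher in delta than in beta cells (main count 27) and 12 to 24 higher in delta than in alpha cells (main count 22). The low counts came from leaving out delta replicate 1 (16 and 13 genes) or 2 (17 and 12), when 36 and not 43 genes passed the filter. The other counts of genes called in a comparison stayed within 1.5 times under all 20 alternatives, and no called difference changed sign. Of 94 called differences, 69 were called under every alternative that tested them and 25 were lost under at least 1. Only 78 of the 94 were tested when a delta library was left out, since the other genes then failed the filter. Calls of those genes could not be lost there, so the count of 69 overstates how many held. Median-ratio scaling ended 9 calls, hormone reads left out 6, and subtraction of other types 3. The split of beta libraries ended 8, with its difference of differences counted as delta against alpha cells. A pseudocount of 0.1 moved 47 of the 94 differences away from 0 by over 1.5 times and ended 1 call, that of Kcnj3 for delta against alpha cells. The cause of the other shifts was not tested. No paired fit was run, since the labels give no replicate numbers and do not say which libraries share islets. Depth limits the low genes: at 0.1 RPKM a gene has few reads, and the delta values rest on 2 libraries.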
